A study of Mus musculus with 2 samples.

Results

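Kupffer cells are the resident macrophages of the liver sinusoids, and their transcripts were examined in 2 preparations of sorted mouse hepatocytes as a measure of how much macrophage RNA each preparation carried. The members are 37 gene symbols known from Kupffer cells and other macrophages, taken as the probe sets annotated to 1 gene whose symbol is on the list. Of these, 36 had at least 1 such probe set, 64 probe sets in all, among 18193 genes on the array. The symbol Axl2 matched no probe set. The similarly named receptor gene Axl is not a member, and both of its probe sets lay under the background floor of each array (for 1423586_at, 181.7 in the EzrinT567D negative and 110.6 in the EzrinT567D positive array).

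Macrophages are told from other cells by receptors that bind dying cells, microbes and antibody, by lysosomal and complement proteins, and by the transcription factor PU.1, which specifies the myeloid lineage. Kupffer cells add a set of their own, among them the lectin Clec4f, the complement receptor Vsig4 and the phosphatidylserine receptor Timd4. They sit in the same sinusoids as the endothelial and stellate cells, and collagenase digestion of the liver releases them together with hepatocytes. Several members are not exclusive to macrophages: Mrc1, Fcgr2b and Folr2 are also known from other cells, including endothelium for the first 2, and Lcp1, Coro1a, Ptprc, Cd52, Cd53 and Laptm5 from leukocytes in general.

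Both preparations came from male FVB mice aged 6 to 8 weeks that had received a hydrodynamic tail vein injection of 10 µg of a transposon plasmid for EzrinT567D, a phosphomimetic ezrin, with 0.8 µg of a plasmid for the Sleeping Beauty transposase. Hepatocytes were isolated by collagenase 1 week later and sorted by GFP into an EzrinT567D negative (GFP-) and an EzrinT567D positive (GFP+) group, with 1 Affymetrix Mouse Genome 430 2.0 array each. Both groups had therefore been injected, and neither is an uninjected control. Whether cells were also gated on a leukocyte marker, what promoter drives the transgene, how many mice were used and whether they were pooled is not given in the sources used here. The labels disagree with each other on diet and time. The growth protocol and the source names give chow and 1 week for both groups, but the description field names 2 months, and assigns the EzrinT567D positive group alone to fast food.

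The values are MAS5 signals, scaled so that the 2% trimmed mean was 500.0 in both arrays. Each array received a background floor from 84 chemosensory receptor probe sets (olfactory, vomeronasal, bitter taste and trace amine receptors, which liver cells are not known to use). Their 95th percentile was 252.66 for negative and 334.04 for positive cells. All 14 hepatocyte markers with a probe set lay above the floor in both arrays, with a median log2 ratio of -0.17, and albumin (Alb) read 46434.5 and 38679.3. With 1 array per group there is no test between the groups. The only error available is technical: 3182 genes had 2 or more probe sets that cleared both floors, and log2 ratios from 2 probe sets of a gene differed with an SD of 0.42, or 0.47 over the 1930 genes whose dimmer probe set was under 1000. Fewer macrophages and less RNA per macrophage cannot be told apart in such preparations.

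Of the 36 macrophage members, 20 lay under the floor in both arrays, and among the 11 above it in both, no ratio reached 2-fold. The floor was exceeded by 16 of 36 members (44.4%) in the negative array and by 11 (30.6%) in the positive array, against 54.1% and 47.8% of all genes; 46.0% of all genes exceeded both floors. The 11 in the positive array were all among the 16, so 5 members exceeded the floor in the negative array only (13.9%, against 8.13% of all genes) and 0 in the positive array only (1.85% of all genes). Among the 16, 0 were at least 2-fold higher and 0 at least 2-fold lower in the positive array, where 1.34% and 0.58% of the 10178 genes above a floor were. The count of lower members is limited by the floor, since only C1qb, Lyz2 and Lcp1 read high enough in negative cells to show a 2-fold fall above it. Among the 6249 of these genes with a mean signal up to 1000, the range of all but 1 of the 16 members, the shares were 1.65% and 0.48%. In direction, 10 read lower, 5 higher and 1 had no direction, beside 46.5% lower, 44.9% higher and 8.61% without a direction over those 10178 genes. A signal under the floor was raised to it, and a bound pointing the other way was set to 0. The 5 members above the floor in the negative array only could therefore be counted only as lower or without a direction. All 5 members counted as higher were among the 11 above the floor in both arrays. The median log2 ratio was -0.08, compared with 0.00 over the 10178 genes. Over the 11 members above the floor in both arrays it was -0.07, beside 0.00 over all such genes. The remaining 20 members, under the floor in both arrays, read from 9.8 to 234.9 in negative and from 13.1 to 229.5 in positive cells.

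**Figure D1:**
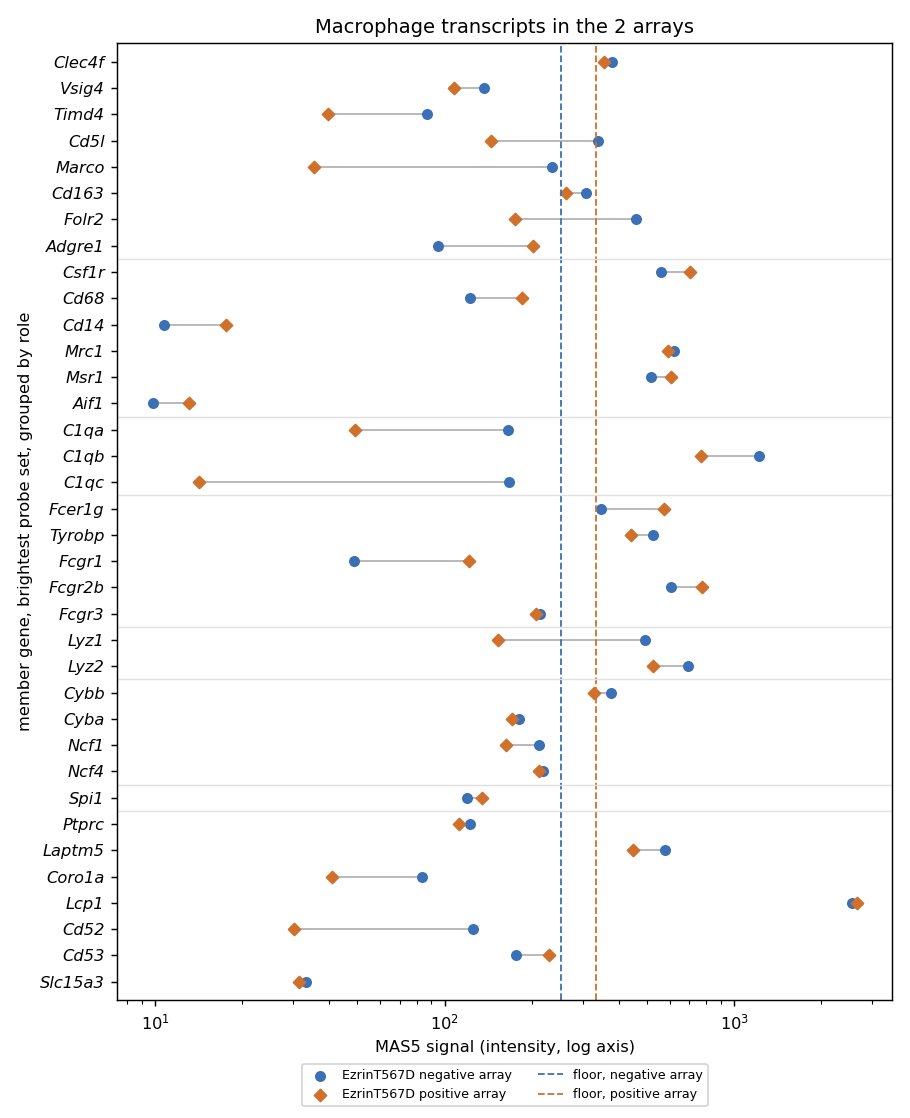
MAS5 signal (log axis) of the brightest probe set of each of the 36 members in the EzrinT567D negative array (blue circles) and positive array (orange diamonds), grouped by role, with the floor of each array as a dashed line (252.66 and 334.04). Most members sit left of both lines, and the 11 members right of both lines have pairs of points that lie close together.

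Of the 8 genes by which Kupffer cells are recognised, 7 receptors and the secreted Cd5l, 4 were above the floor in negative and 1 in positive cells. Clec4f was the single one of the 8 that exceeded it in both arrays, reading 379.2 in negative and 354.7 in positive cells (log2 ratio -0.10), close to the floor on both sides. Timd4 (87.1 and 39.6), Vsig4 (136.5 and 107.6), the scavenger receptor Marco (234.9 and 35.3) and Adgre1, which encodes the F4/80 antigen (94.7 and 201.5), were under the floor in both. The other 3 exceeded it in the negative array only. Folr2, a folate receptor of tissue macrophages, read 458.4 and 175.0, at least 1.37-fold lower in the positive array. Cd5l, a secreted inhibitor of apoptosis, read 339.5 and 144.8, which against the positive floor allows only a bound of at least 1.02-fold lower. Cd163, the haemoglobin scavenger receptor, read 308.0 and 262.3 and had no direction, because its negative signal was under the positive floor. Of the 8 genes, 7 had the lower deposited signal in the positive array, and Adgre1 the higher, where 48.8% of all genes had the lower. Only the positive signal of Clec4f was above the floor, so the other positive signals are not separated from background.

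Of 6 general macrophage genes, the same 3 were above the floor in negative and in positive cells, and all 3 encode receptors. Csf1r, the receptor for the growth factor that macrophages depend on, read 558.7 in negative and 702.1 in positive cells (log2 ratio 0.33). A further probe set for it, at 348.8 and 446.8, gave 0.36. Its probe set 1419873_s_at read 153.3 and 69.5, under both floors. The scavenger receptor Msr1 read 514.6 and 603.4 (0.23), and the mannose receptor Mrc1 618.3 and 588.4 (-0.07). These differences were smaller than the SD between probe sets of 1 gene. Cd68, a lysosomal glycoprotein used as a general macrophage marker, read 121.9 and 184.3, under both floors. The endotoxin co-receptor Cd14 (10.7 and 17.6) and the actin-binding Aif1, or Iba1 (9.8 and 13.1), were far under the floor.

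The C1q chains form the recognition subunit of the classical complement pathway, and macrophages are a main source of them. Among the members above the floor in both arrays, C1qb had the lowest ratio, with 1214.2 in negative and 765.8 in positive cells (1.59-fold lower, log2 ratio -0.66). Members above the floor in the negative array only, such as Folr2, Lyz1 and Cd5l, have only bounds and could lie lower. A second C1qb probe set read 934.6 and 684.6 (-0.45). Both carry the suffix _x_at, which marks probes that may bind other transcripts, and the third, 1417063_at, read 215.3 and 210.3, under both floors. C1qa (165.0 and 48.9) and C1qc (167.3 and 14.2) were also under both floors. All 3 chains thus had the lower deposited signal in the positive array, but a ratio above background exists for C1qb alone.

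The Fc receptor genes and their adaptors held the member with the highest ratio. Fcer1g encodes the gamma chain through which activating Fc receptors signal, and it read 347.4 and 569.8 (1.64-fold higher in the positive array, log2 ratio 0.71), from a negative signal near the floor and on 1 probe set. Tyrobp, the DAP12 adaptor with a related role, read 525.9 and 440.9 (-0.25). Fcgr2b, the inhibitory receptor for immunoglobulin G, was split between probe sets: 1451941_a_at gave 0.35 (604.6 and 770.8), whereas 1455332_x_at gave -0.36 (621.9 and 486.0) and 1435477_s_at -0.32 (480.2 and 385.4). It is counted as higher through the first of these, and the mean over its probe sets above the floor turns the sign (-0.11). The activating receptors Fcgr1 (48.7 and 121.2) and Fcgr3 (213.4 and 206.1) were under both floors.

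Among the members above the floor in both arrays, C1qb and Fcer1g had the ratios farthest from 0 in the 2 directions. Cd5l is 1 of the 5 members above the floor in the negative array only. The 250 bases upstream of each transcription start, from RefSeq (GRCm38.p6, the C57BL/6J reference and not the FVB strain), are shown for these members as examples. Capitals mark the hexamer GAGGAA or its reverse complement TTCCTC, 1 form of the sites that PU.1 is known to bind. Other forms were not marked, and the shorter GGAA within the hexamer occurs in each window shown. A window without the hexamer is therefore not shown to lack a PU.1 site. The C1qb window is chr4:136886201-136886450 on the minus strand, that of Cd5l chr3:87357631-87357880 on the plus strand and that of Fcer1g chr1:171234350-171234599 on the minus strand.
C1qb: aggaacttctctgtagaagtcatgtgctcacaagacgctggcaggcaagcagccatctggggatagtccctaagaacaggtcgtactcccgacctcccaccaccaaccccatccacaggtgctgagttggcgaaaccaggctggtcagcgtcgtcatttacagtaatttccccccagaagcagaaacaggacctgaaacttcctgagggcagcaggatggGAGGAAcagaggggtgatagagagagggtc
Cd5l: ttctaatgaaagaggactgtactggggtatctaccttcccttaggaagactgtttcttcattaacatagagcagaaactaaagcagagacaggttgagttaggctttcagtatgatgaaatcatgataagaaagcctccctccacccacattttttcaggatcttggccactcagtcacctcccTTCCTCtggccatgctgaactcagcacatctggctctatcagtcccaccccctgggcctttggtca
Fcer1g: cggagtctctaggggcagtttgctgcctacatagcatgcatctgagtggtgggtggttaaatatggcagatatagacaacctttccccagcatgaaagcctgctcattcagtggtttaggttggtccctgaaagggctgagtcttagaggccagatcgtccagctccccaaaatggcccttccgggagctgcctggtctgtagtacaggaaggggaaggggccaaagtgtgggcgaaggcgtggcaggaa
The hexamer begins 30 bases before the start in C1qb and 66 bases before it in Cd5l, and the Fcer1g window holds none. Of the other members counted as lower, Laptm5 and Mrc1 held it, while Clec4f, Folr2, Lyz1, Lyz2 and Cybb held none. Lcp1 and Fcgr2b, counted as higher, held none, though the probe sets of Fcgr2b differ in sign. No promoter entry was matched for Csf1r and Msr1, also counted as higher, or for Tyrobp, counted as lower. Whether the hexamer goes with direction was not tested. A promoter entry was matched for 26 members, of which 13 held the hexamer on either strand in at least 1 of their windows. Counted by window, 14 of the 31 member windows held it (45.2%), beside 23.3% of 32851 windows of the same length. A match is a description of the letters and not a measured binding site.

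Both lysozymes, which break bacterial cell walls, read lower in the positive array. Lyz2, the lysozyme of macrophages, read 690.4 and 523.4 (1.32-fold lower, log2 ratio -0.40). Lyz1, the lysozyme of Paneth cells in the gut, read 491.1 and 152.4, at least 1.47-fold lower, on the probe set 1436996_x_at. Its probe set without such a suffix, 1450822_at, read 123.4 and 174.9, under both floors. Lyz1 and Lyz2 are close paralogs that 1 probe set may not separate, and whether their probe sets share signal was not tested.

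The phagocyte NADPH oxidase, which makes superoxide, was not clearly detected. Cybb, its catalytic subunit, read 376.7 and 326.9, at least 1.13-fold lower in the positive array. Its partner Cyba (180.8 and 170.6) and the cytosolic subunits Ncf1 (212.3 and 163.3) and Ncf4 (218.1 and 212.1) lay under both floors. Spi1, which encodes PU.1, read 119.8 and 134.8, also under both.

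Of the 7 leukocyte membrane and cytoskeleton genes, 2 were above the floor in both arrays. Lcp1, the actin-bundling protein L-plastin, read 2554.0 and 2658.1 (log2 ratio 0.06), and its second probe set read 1726.6 and 1862.6 (0.11). It was thus nearly equal in the 2 preparations in both probe sets. Laptm5, a lysosomal membrane protein, read 578.4 and 447.1 (-0.37) in 1436905_x_at, and 362.2 and 234.6 in a second probe set, a bound of -0.12. Ptprc, which encodes the leukocyte antigen CD45, read 121.9 and 112.2. Together with Coro1a (83.2 and 40.7), Cd52 (124.9 and 30.2), Cd53 (175.8 and 229.5) and the lysosomal transporter Slc15a3 (33.3 and 31.5), it lay under both floors.

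**Figure D2:**
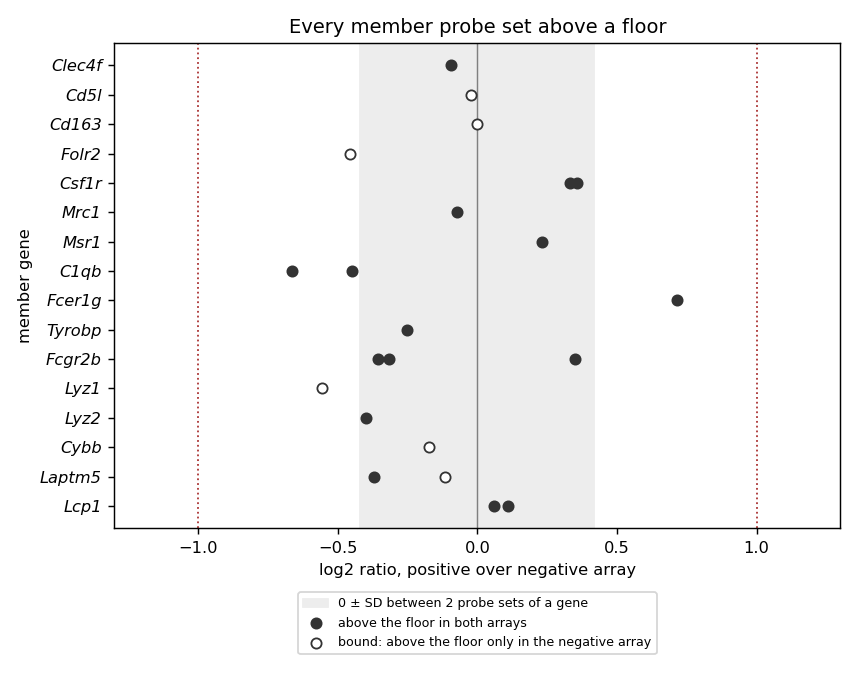
Log2 ratio, positive over negative array, for each of the 22 member probe sets above a floor, by gene. Filled points were above the floor in both arrays and open points are bounds, the shaded band is 0 ± the SD of 0.42 between 2 probe sets of a gene, and dotted lines mark 2-fold. None of the points reaches a dotted line, and the 3 filled points of Fcgr2b lie on both sides of 0.

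Probe sets of the same member mostly ran the same way where they could be compared. Of 64 member probe sets, 22 were above the floor in the negative array, 16 of these also in the positive array, and 42 were under both. Among the 4 members with several probe sets that cleared both floors, C1qb, Csf1r and Lcp1 had 1 sign and Fcgr2b had both. A ratio of 1.5-fold, a threshold chosen after the data were seen, was exceeded by 2 members: Fcer1g higher and C1qb lower, 1 member of 16 each, beside 6.57% and 3.98% of genes above a floor. Over the 11 members above the floor in both arrays, the interquartile range of the log2 ratios was -0.31 to 0.28, beside -0.20 to 0.23 over all 8362 such genes.

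The low signals limit what a 2-fold difference could have shown. A member needed 668.08 in the negative array for a 2-fold fall to stay measurable above the positive floor, which 3 members reached. For Folr2, Lyz1 and Cd5l, past 2-fold as deposited, only a smaller bound can be given. Without a floor, on signals as deposited, 9 of 36 members were at least 2-fold lower in the positive array and 2 at least 2-fold higher, beside 9.10% and 8.95% of all genes. The 9 were Timd4, Cd5l, Marco, Folr2, C1qa, C1qc, Lyz1, Coro1a and Cd52, and all read under the positive floor. The higher 2 were Adgre1 and Fcgr1, under both floors. Among the 25 members under the positive floor, 9 (36.0%) were 2-fold lower, beside 16.9% of the 9494 genes under it. Both sets are selected by a low positive signal, which favours lower ratios, so no conclusion is drawn from these shares. In direction alone, 24 of 36 members had the lower deposited signal in the positive array, beside 48.8% of all genes, and so had 13 of the 20 under both floors, beside 43.3% of such genes. Signals under the floor are not separated from background, so these counts describe the deposited values only.

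Summed over the 36 members, the signal was 13119.5 in negative and 11600.2 in positive cells, a ratio of 0.884. Over the 11 members above the floor in both arrays the sums were 8585.7 and 8424.5, a ratio of 0.981. The sum over all genes had a ratio of 0.961, and that over the hepatocyte markers 0.899. The other 25 members summed to 4533.8 and 3175.7, so most of the difference lay in members that were under a floor in at least 1 array. By role, the ratio of sums was 0.536 for the C1q chains, 0.572 for the lysozymes, 0.648 for the Kupffer cell genes, 0.884 for the NADPH oxidase, 0.967 for the leukocyte genes, 1.15 for the general macrophage genes and 1.21 for the Fc receptors and adaptors. These sums include signals under the floor. Over members above the floor in both arrays, the ratio was 0.631 for the C1q chains (C1qb alone), 0.758 for the lysozymes (Lyz2 alone), 0.935 for the Kupffer cell genes (Clec4f alone), 0.991 for the leukocyte genes, 1.12 for the general macrophage genes and 1.21 for the Fc receptors and adaptors, and none of the NADPH oxidase genes entered.

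Other macrophage genes came from lists that hold no member. Of 40 further macrophage and phagocyte genes with a probe set, 15 were above a floor, with 6 higher, 3 lower and 6 without a direction and a median log2 ratio of 0.00, to which the 6 ratios set to 0 contribute. Over the 9 above the floor in both arrays the median was 0.19, while their summed signal had a ratio of 0.752. Mpeg1, the pore-forming perforin-2 of macrophages, read 944.6 and 1077.2 (0.19). Ctss, the cathepsin that processes antigen for class II presentation, read 768.9 and 345.3 (2.23-fold lower). It was the 1 gene of this list past 2-fold, where 0.58% of all genes above a floor were at least 2-fold lower. The class II chain H2-Aa read 692.1 and 433.7 (-0.67) in 1438858_x_at. Its probe set 1452431_s_at gave a bound of -0.385, and 1435290_x_at had no direction. Other class II genes did not follow: Cd74 read 394.7 and 422.3 (0.098), and H2-Ab1, at 253.3 and 215.7, had no direction. The haematopoietic GTPase Rac2 read 310.3 and 440.3 (0.50). The iron exporter Slc40a1, which hepatocytes also express, read 6411.1 and 3930.5 (-0.71), with a second probe set at -0.38.

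Transcription factors known from Kupffer cells are shared with hepatocytes in part. Of 12 with a probe set, 8 were above a floor, 4 higher and 4 lower, with a median of 0.04. The liver X receptor Nr1h3 read 1548.0 and 1743.7 (0.17), Id3 1837.3 and 2573.8 (0.49), Rxra 3747.8 and 3281.7 (-0.19) and Cebpb 5196.6 and 5645.7 (0.12). Runx1 read 577.3 and 164.3 in 1452530_a_at, a bound of -0.79, while its other 5 probe sets were under both floors. Spic, the factor of iron-recycling macrophages, read 107.0 and 13.8, also under both. Of 14 genes of signals that attract or maintain macrophages, 13 ligands and the C5a receptor C5ar1 (285.1 and 164.9), 8 were above a floor and 1 was past 2-fold. The median was 0.03, or 0.14 over the 4 above the floor in both arrays, whose summed signal had a ratio of 0.767. In this list, the chemokine Ccl9 read 6230.2 and 2678.3 (-1.22), but 893.4 and 801.8 (-0.16) in its second probe set. Csf1, the ligand of Csf1r, read 659.9 and 690.1 (0.06), and the monocyte attractant Ccl2 279.8 and 433.6 (0.63).

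**Figure D3:**
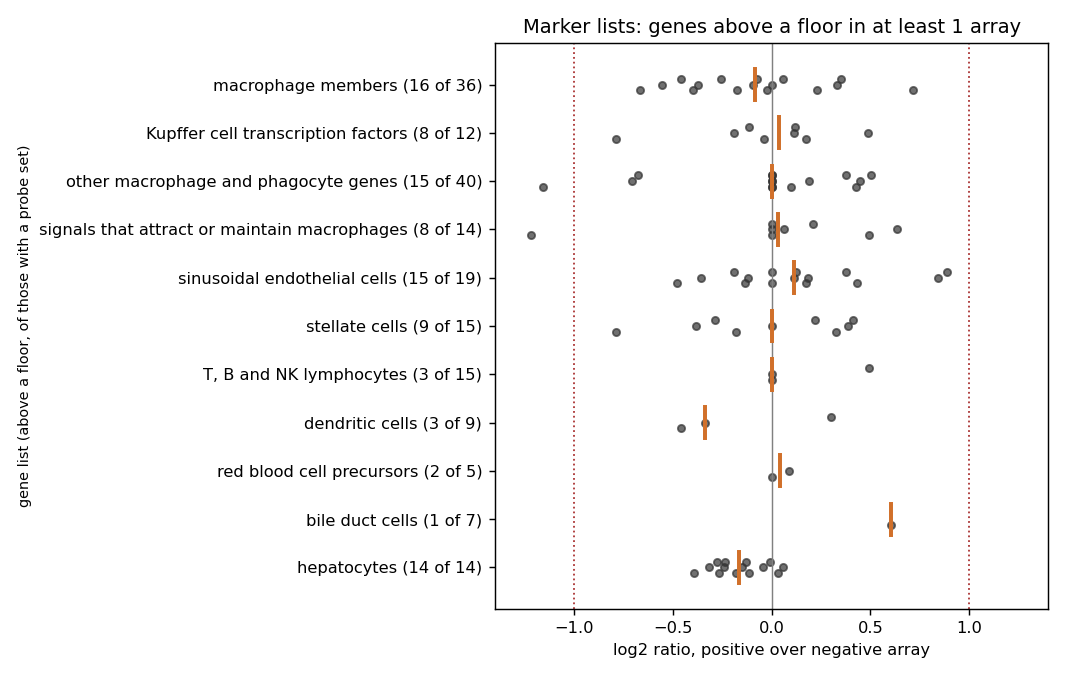
Log2 ratio, positive over negative array, for genes above a floor in at least 1 array, by list, with the median of each list as an orange bar and 2-fold as dotted lines. Counts after each name give the genes above a floor out of those with a probe set. The median of the macrophage members lies at -0.08, next to 0.00 for stellate cell and 0.11 for endothelial genes.

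Markers of the other sinusoidal cells were compared with the members because these cells are released by the same digestion. Of 19 genes of sinusoidal endothelium with a probe set, 15 were above the floor in the negative array (78.9%) and 12 in the positive array (63.2%), with 8 higher, 5 lower and 2 without a direction, a median of 0.11 and sums of 9289.4 and 9603.0. The lectin Clec4g read 1255.2 and 1418.4, the phosphatase Ptprb 1310.9 and 1206.8, Cdh5, or VE-cadherin, 283.0 and 507.0 (0.84), and Bmp2 274.7 and 508.3 (0.89). In the other direction, endoglin (Eng) read 464.8 and 168.3, a bound of -0.48, and Egfl7 1216.2 and 950.7 (-0.36). A second Egfl7 probe set, 1451428_x_at, gave the same ratio, but 1435823_x_at read 276.8 and 339.5 (0.295). For stellate cells the counts were 9 and 8 of 15 (60.0% and 53.3%), with a median of 0.00 and sums of 4973.0 and 4386.6. Over all genes, 54.1% and 47.8% exceeded the floors of the negative and positive array. The retinol acyltransferase Lrat read 362.1 and 473.5, and Rgs5 638.3 and 369.4 (-0.79). Other probe sets of Rgs5 read 455.6 and 396.0 (-0.20) and, without a direction, 283.4 and 306.3. A difference between these lists and the macrophage members was not tested, since 1 array per group allows none.

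Of the other blood cells, markers of neutrophils, monocytes and lymphocytes gave little signal. For dendritic cells and red blood cell precursors, 33.3% and 40.0% exceeded the floor of the negative array, beside 44.4% of the members. None of 13 neutrophil and monocyte markers exceeded a floor, and S100a8 read 23.6 and 253.1 and S100a9 56.3 and 50.1. Of 15 lymphocyte markers, 2 exceeded it in the negative array (Cd8a at 310.6 and Cd79a at 274.0) and 1 in the positive array (the chemokine Ccl5 at 354.9), with 0 in both. Of 9 dendritic cell markers, 3 were above a floor: Siglech at 422.0 and 107.3, Zbtb46 at 404.6 and 498.4, and Bst2, which interferon induces in many cell types, at 1416.8 and 1033.2. Of 5 markers of red blood cell precursors, Alas2 was above the floor in both arrays (689.6 and 733.4). Slc4a1 exceeded it in the negative array only (273.9 and 66.5). Of 7 bile duct markers, Aqp1 alone was above it (257.6 and 390.9).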

How the data were processed

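The deposited values are probe set intensity values on a linear scale, made by the authors with MAS5, per the submitters' processing notes; its version and detection calls remain unstated in the labels. Equal scaling hides any shift common to all transcripts. Of 45101 probe sets, 34945 carried 1 gene symbol in GEO's platform annotation, 932 several and 9160 none, and 64 were controls; only those with 1 symbol were used. All 36 members matched a RefSeq gene (GRCm38.p6) by Entrez ID, and 0 symbols changed.

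The probe set with the highest mean signal stood for its gene. A signal under the floor was raised to the floor, which makes the ratio a bound; a bound pointing away from the measured side was set to 0. Groups came from the group label. Every member is named; of each other list, the 4 genes with the largest ratios and the 2 highest signals were eligible, and other genes named were chosen after their values were seen. Members and lists were chosen with earlier results of these data known. Computation used Python 3.11.15 with pandas 2.3.3 and statsmodels 0.14.6. It was tested on simulated data with known changes in genes far above the floor only. Known changes near the floor, where most members lie, were not simulated. The precision is limited by the number of arrays, 1 per group. Alternatives covered the floor, normalization, choice of probe set and treatment of bounds.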

Additional observations from a re-analysis of the deposited data

How the results depend on the processing

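Counts and median of the members were recomputed under 9 alternatives. The median log2 ratio ran from -0.18 to -0.02, below 0 in each, beside -0.01 to 0.03 over all genes. These values lie well inside the SD of 0.42 between probe sets of a gene. With the main settings, the median of the hepatocyte markers was -0.17. All alternatives reuse the same 2 arrays, so a shared sign is not independent evidence. With the 99th percentile floor, 14 members exceeded it in negative and 10 in positive cells, and without _x_at and _s_at probe sets 13 and 9; C1qb, Lyz1 and Laptm5 then had no value. The counts of 0 at 2-fold were also obtained under 8 of the alternatives; without a floor they were 2 higher and 9 lower. At 1.5-fold, added after seeing the data, they were 1 and 1. Fcgr2b changed sign with the mean over probe sets. No paired analysis was possible because each group has 1 array. Signals near background limit the detection of lower values in the positive array, and neither animal-to-animal spread nor the diet conflict in the labels could be examined.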
